A study of Mus musculus with 20 samples.

Results

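The genes described here are 8 genes of cholesterol synthesis and its control, Hmgcs1, Idi1, Fdps, Fdft1, Sqle, Lss, Cyp51 and Insig1. They were chosen by name from the 23845 genes of the deposited tables. The rule holds no measured value, but earlier results of these data were known when the genes were chosen. They were followed over all 20 libraries and 7 groups. All 8 were among the 16063 genes that passed the filter on low counts. Each library is poly(A)-selected RNA from the brain of a mouse of strain C57/Bl6J kept on a normal diet. There are 3 libraries of Wild type and 3 each of the mutant lines coded J17a, J27a, J27b, J1 lf/lf and J2 lf/lf, while J17b has 2. The series describes knockouts of single isoforms of JNK, the stress-activated kinases encoded by Mapk8 (JNK1) and Mapk9 (JNK2). The codes are not spelled out, so which isoform each line lacks, how its allele was made, and the age and sex of the mice are not known here. Separate animals are not stated for the libraries of a group either, and a p-value here measures only the spread between these libraries.

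Cholesterol is built from acetyl-CoA through mevalonate and the isoprenoids to squalene, which is closed into lanosterol and then trimmed to cholesterol. When sterols run low in the endoplasmic reticulum, INSIG proteins release SCAP, which carries the transcription factor SREBP2 to the Golgi for cleavage. The freed factor raises transcription of nearly every enzyme of the route and of Insig1 itself. The adult brain depends on cholesterol made within it, because lipoproteins do not cross the blood-brain barrier, and oligodendrocytes need much of it for myelin. In order of the route, Hmgcs1 makes HMG-CoA ahead of mevalonate, Idi1 interconverts isopentenyl and dimethylallyl pyrophosphate, and Fdps joins them into farnesyl pyrophosphate. Fdft1 joins farnesyl units into squalene, Sqle oxidises squalene, Lss closes the ring to lanosterol, and Cyp51 removes a methyl group from it. Insig1 is the sterol-responsive brake on the pathway.

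Because most of the genes varied together across the libraries and are textbook SREBP2 targets, their promoters were read from RefSeq (build GRCm38.p6). The table held 5 of the 8 (Hmgcs1, Idi1, Lss, Cyp51 and Insig1), and Fdps, Fdft1 and Sqle were not found in it. The 250 bases before the RefSeq start are shown for 4. These include Hmgcs1, the most abundant gene, and Cyp51, whose group means had the largest ratio with Wild type left out. The others are Lss, the gene that departed from the rest in 1 library, and Insig1, the regulator. The positions are chr13:119690101-119690350 (plus strand) for Hmgcs1, chr5:4104698-4104947 (minus strand) for Cyp51, chr10:76531355-76531604 (plus strand) for Lss and chr5:28071162-28071411 (plus strand) for Insig1. Capitals mark matches, on either strand, to the CCAAT box (CCAAT) and to a sterol regulatory element (TCACNCCAC, or its shorter core CACNCCAC, which lies within the longer form).
Hmgcs1: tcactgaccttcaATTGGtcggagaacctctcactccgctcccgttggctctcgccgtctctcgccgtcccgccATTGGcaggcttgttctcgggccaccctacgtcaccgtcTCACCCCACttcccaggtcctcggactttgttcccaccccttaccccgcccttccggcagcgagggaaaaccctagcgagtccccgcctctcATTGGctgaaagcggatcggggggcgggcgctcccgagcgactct
Cyp51: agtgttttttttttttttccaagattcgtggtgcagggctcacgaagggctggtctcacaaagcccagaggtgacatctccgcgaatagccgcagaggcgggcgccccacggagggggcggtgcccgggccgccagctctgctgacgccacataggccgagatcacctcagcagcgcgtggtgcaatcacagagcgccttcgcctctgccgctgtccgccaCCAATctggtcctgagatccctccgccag
Lss: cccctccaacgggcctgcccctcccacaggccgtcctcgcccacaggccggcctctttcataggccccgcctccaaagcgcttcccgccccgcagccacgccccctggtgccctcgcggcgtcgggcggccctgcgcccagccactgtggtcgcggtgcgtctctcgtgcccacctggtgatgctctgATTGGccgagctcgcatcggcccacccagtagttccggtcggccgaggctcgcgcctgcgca
Insig1: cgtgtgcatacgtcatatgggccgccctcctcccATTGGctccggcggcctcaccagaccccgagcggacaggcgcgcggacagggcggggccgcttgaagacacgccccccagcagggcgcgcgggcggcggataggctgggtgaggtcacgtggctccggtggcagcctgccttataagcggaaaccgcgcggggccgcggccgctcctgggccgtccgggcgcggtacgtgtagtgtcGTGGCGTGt
The longer element matched in Hmgcs1 alone of the 5, 137 bases before the start, and in 1.05% of 32851 RefSeq promoters cut to the same length. The shorter core also matched in Insig1, against 5.29% of promoters. All 5 held a CCAAT box (33.8% of promoters), 3 of them in Hmgcs1 and 2 in Idi1, and all 5 held a GC box (GGGCGG or its reverse complement, 32.7% of promoters). These matches describe the letters in the window only.

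Library totals ran from 21395041 to 33828755 estimated counts. Wild type replicate 3 stood apart: it was the highest of 20 libraries in 19.2% of tested genes and the lowest in 20.1%, against 2.38% to 7.72% for any other library. In it, GC-rich transcripts (above 56.1% GC) lay 0.61 log2 units lower, relative to GC-poor ones (below 44.4% GC), than in the average library. J17a replicate 2 had the same difference at -0.26, and the other 18 libraries lay between -0.16 and 0.17. Values against Wild type are therefore given with and without replicate 3. The 10 libraries whose titles are numbered up to 10 (J17a replicate 1 and all of J1 lf/lf, J2 lf/lf and Wild type) held 3066 to 6718 CPM of the ribosomal precursor Rn45s, and the 10 numbered above 10 held 17321 to 54698 CPM. J17b, J27a and J27b lie wholly in the later part, and only J17a has libraries in both. The lines were also checked on the JNK genes. Mapk8 was at 74.6 to 79.2 CPM in J17b, below the other groups, and at 102 to 122 CPM in J1 lf/lf, which overlapped Wild type at 109 to 140 CPM. Mapk9 was at 58.1 to 177 CPM in J2 lf/lf and no lower than 274 CPM elsewhere. Oligodendrocyte, astrocyte and neuron markers were all detected in every library (10 of 10 genes of each list).

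Of the 8 genes, 7 were among the more abundant in brain. On the deposited TPM scale, which corrects for transcript length, Hmgcs1 averaged 204 over the 20 libraries and stood at the 94.4th percentile of tested genes. Fdps followed at a mean of 114 TPM, then Fdft1 at 75.2, Insig1 at 74.1, Sqle at 62.8, Idi1 at 58.4 and Cyp51 at 42.9. Lss, the cyclase, was the lowest at 16.96 TPM, 12.1 times below Hmgcs1 and near the middle of tested genes (48.5th percentile). The summed TPM of the 8 genes ran from 580.3 in Wild type replicate 2 to 748 in Wild type replicate 3. Both extremes fell within the Wild type group.

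Group means lay close together. Over the 20 libraries the highest CPM (estimated counts scaled to the library total, with TMM factors) was 1.26 times the lowest for Fdps and 1.79 times for Lss, with the other 6 between. The highest group mean was 1.11 times the lowest for Hmgcs1, 1.15 for Insig1 and Fdft1, 1.16 for Sqle, 1.17 for Fdps, 1.23 for Idi1, 1.25 for Cyp51 and 1.34 for Lss. When the 7 groups were ordered by mean, 46 of the 48 neighbouring pairs overlapped in their libraries. The exceptions were Lss in J2 lf/lf above J1 lf/lf, and Cyp51 in J27b above J17b. The share of such pairs over all tested genes was not computed, so this count does not set the 8 genes apart. In the edgeR test for any difference among the 7 groups, 0 of the 8 genes passed an adjusted p of 0.05, against 0.0872% of all tested genes. At an unadjusted p under 0.05 there was 1 of 8 (Cyp51) in edgeR, against 6.71% of all genes, and DESeq2 also called 0 of 8 (1.44% of all genes). Cyp51 had an edgeR adjusted p of 0.429, which fell to 0.0367 without Wild type replicate 3 (0.71% of tested genes called) and to 0.0446 with a curve on GC content taken out of each library (0.243% called). It was 0.543 without J17a replicate 2 (0.0501% called) and 0.0539 without both of these libraries (0.994% called).

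**Figure D1:**
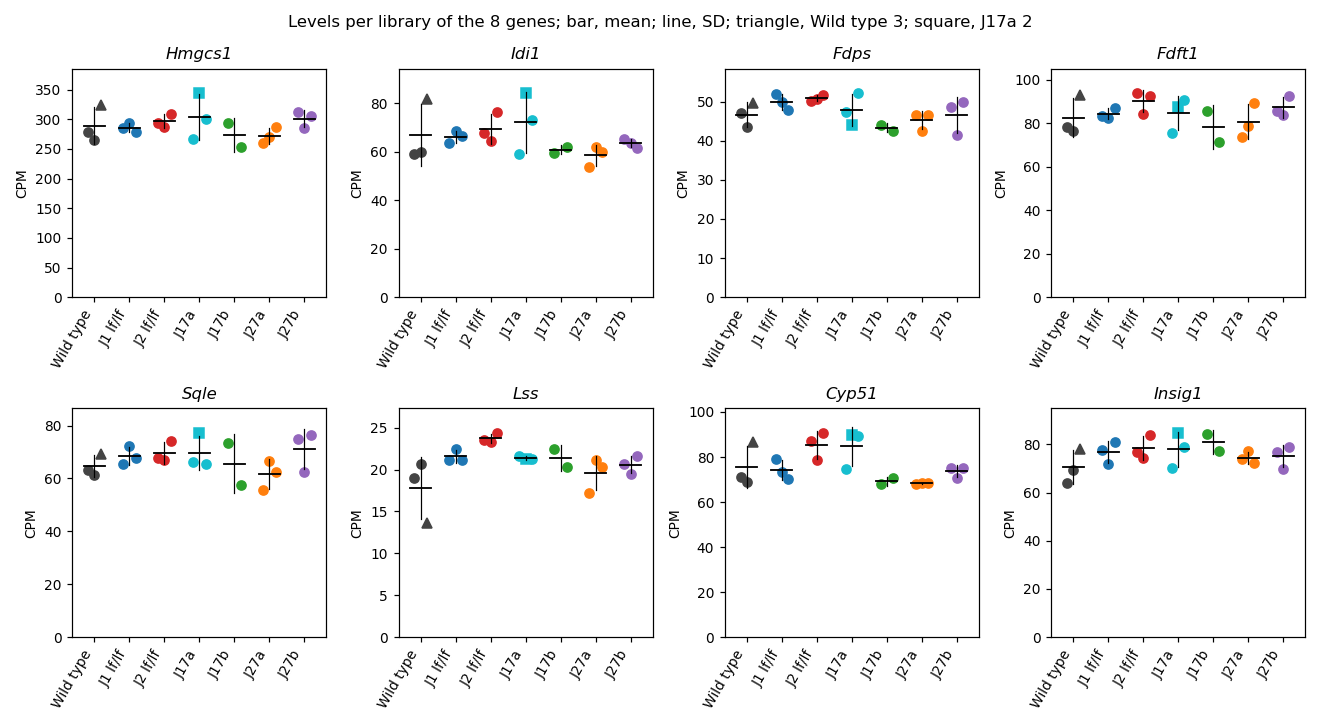
CPM of each gene (vertical axes, starting at 0) in the 7 groups, with a point per library, a bar at the group mean and a line for the SD. Wild type replicate 3 (triangle) is the lowest point for Lss at 13.6 CPM and near the top for Hmgcs1 and Idi1, and the 3 J27a points of Cyp51 lie together at 68.1 to 68.4 CPM.

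Hmgcs1 (chromosome 13, 119690379 to 119708260, mm10), at the head of the route, stood at 278, 265 and 325 CPM in Wild type, 286, 294 and 278 CPM in J1 lf/lf and 294, 286 and 309.6 CPM in J2 lf/lf. It stood at 266, 344 and 300.2 CPM in J17a, 293 and 254 CPM in J17b, 261, 270 and 287 CPM in J27a and 313, 286 and 305 CPM in J27b. Every line overlapped Wild type, and J17a replicate 2 was the highest of the 20 libraries and J17b replicate 2 the lowest. Its log2 fold changes against Wild type ran from -0.09 (SE 0.09) in J27a to 0.07 (SE 0.09) in J17a.

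Idi1 (chromosome 13, 8885501 to 8892451) was at 59.0, 60.1 and 81.7 CPM in Wild type, 63.7, 68.6 and 66.4 CPM in J1 lf/lf and 67.7, 64.4 and 76.2 CPM in J2 lf/lf. It was at 59.0, 84.2 and 73.2 CPM in J17a, 59.5 and 62.1 CPM in J17b, 53.5, 62.0 and 59.9 CPM in J27a and 65.2, 63.7 and 61.7 CPM in J27b. Its 2 highest libraries, J17a replicate 2 and Wild type replicate 3, were the 2 with the GC shift, and at 41.9% GC Idi1 has the lowest GC content of the 8. After a curve on GC content was taken out of each library, they ranked 2 and 7 of 20.

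Fdps and Fdft1, which build farnesyl pyrophosphate and squalene, had the narrowest ranges of the 8 genes relative to their level. Fdps (chromosome 3, 89093588 to 89101959) ran from 41.4 to 52.2 CPM and Fdft1 (chromosome 14, 63145150 to 63179578) from 71.3 to 94.0 CPM. Fdps was tightest in J2 lf/lf, at 50.2, 50.6 and 51.8 CPM, all above the Wild type libraries at 47.1, 43.4 and 49.5 CPM. Its group means ran from 43.3 ± 1.16 CPM in J17b (SD, n = 2) to 50.9 ± 0.81 CPM in J2 lf/lf (n = 3). Those of Fdft1 ran from 78.4 ± 10.05 CPM to 90.3 ± 5.19 CPM in the same 2 groups, and its J17b libraries, at 85.5 and 71.3 CPM, were far apart. Fdft1 overlaps Ctsb on the opposite strand, and it is the 1 gene of the 8 whose estimated counts were not whole numbers, as RSEM gives where reads are shared out between genes.

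Sqle (chromosome 15, 59315077 to 59331192), a rate-limiting enzyme of the later route, ran from 55.6 CPM in J27a replicate 1 to 77.2 CPM in J17a replicate 2. Its libraries were at 55.6, 66.6 and 62.6 CPM in J27a and at 74.7, 62.6 and 76.5 CPM in J27b, with J27b replicate 2 inside the J27a range. These were the lowest and highest groups, at means of 61.6 ± 5.57 and 71.3 ± 7.55 CPM (SD, n = 3 each). Its widest group was J17b, at 73.4 and 57.7 CPM, and the other groups had means from 64.6 to 69.7 CPM.

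Lss (chromosome 10, 76531588 to 76557138) was at 18.97, 20.7 and 13.6 CPM in Wild type, 21.1, 22.5 and 21.2 CPM in J1 lf/lf and 23.5, 23.3 and 24.4 CPM in J2 lf/lf. It was at 21.6, 21.2 and 21.3 CPM in J17a, 22.5 and 20.3 CPM in J17b, 17.3, 21.2 and 20.3 CPM in J27a and 20.6, 19.53 and 21.6 CPM in J27b. The 3 J2 lf/lf libraries were the 3 highest of all 20. The share of tested genes with a whole group at the top was not computed. Wild type replicate 3 was the lowest of all 20. It stayed the lowest, at 14.2 CPM, after the GC curve was taken out.

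Cyp51 (chromosome 5, 4081145 to 4104746) was at 71.2, 69.0 and 86.5 CPM in Wild type, 79.0, 73.2 and 70.2 CPM in J1 lf/lf and 87.0, 78.6 and 90.7 CPM in J2 lf/lf. It was at 74.8, 89.8 and 89.5 CPM in J17a, 67.8 and 70.5 CPM in J17b, 68.1, 68.4 and 68.2 CPM in J27a and 75.01, 70.6 and 75.3 CPM in J27b. The 5 highest libraries came from J2 lf/lf, J17a and Wild type replicate 3, while J27a and J17b held the 4 lowest. Cyp51 overlaps Akap9 on the opposite strand, and the sources used here do not give whether counting used strand. Hmgcs1, Idi1 and Lss each overlap an exon of another annotated gene on the opposite strand, and Fdps one on the same strand, while Sqle and Insig1 overlap none.

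Insig1 (chromosome 5, 28071363 to 28078662), the brake of the pathway, was at 64.2, 69.5 and 78.2 CPM in Wild type and at 84.5 and 77.3 CPM in J17b. All other libraries lay between 70.0 and 84.8 CPM. Insig1 was thus lowest in Wild type replicates 1 and 2, and replicate 3 reached into the J17b range. Its group means ran from 70.6 ± 7.09 CPM in Wild type to 80.9 ± 5.07 CPM in J17b, so Wild type was the lowest group for Insig1 and Lss alone among the 8 genes.

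Each line was first set against Wild type. Wild type lies wholly in the earlier title numbers, and J17b, J27a and J27b lie wholly in the later ones. For these lines the allele and the title part cannot be told apart, except through J17a. Medians with a term for the title part are given in the last section. In J1 lf/lf, 5 of the 8 genes were positive and 3 negative, with a median log2 fold change of 0.06 against 0.00 over all genes. At an adjusted p of 0.05 edgeR called 0 of 8 (0.0125% of tested genes), and 1 of 8 had an unadjusted p under 0.05 (5.04% of tested genes). That gene was Lss, at 21.6 ± 0.76 CPM against 17.8 ± 3.71 CPM (SD, n = 3 each), a log2 fold change of 0.28 (SE 0.12, edgeR adjusted p = 0.944). Its 3 libraries all lay above Wild type, as did those of 4.33% of tested genes. Without Wild type replicate 3 the log2 fold change of Lss was 0.12 (SE 0.10), and all 8 genes were positive, between 0.07 and 0.20. Then 1 of 8 had an unadjusted p under 0.05 (9.83% of tested genes), Insig1 in place of Lss, and 0 were called (0.0623%).

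In J2 lf/lf all 8 genes were positive, from 0.04 for Hmgcs1 to 0.41 for Lss, with a median of 0.13 on the log2 scale. The 10 oligodendrocyte markers summed to 6786 to 7460 CPM in J2 lf/lf and 5484 to 6763 CPM in Wild type, narrowly without overlap, and 8 of 10 were positive (median 0.15, 0 called by edgeR and 3 with an unadjusted p under 0.05). The 10 microglia markers summed to 391 to 418 CPM against 328 to 391 CPM (9 of 10 positive, median 0.16, 0 called and 3 with an unadjusted p under 0.05), and all 8 choroid plexus markers were positive (median 0.50, 0 called and 1 with an unadjusted p under 0.05). The microglia and choroid plexus sums overlapped those of Wild type, the latter at 601 to 1845 CPM against 346 to 932 CPM. The part of these markers in the values of the 8 genes was not tested. For the synthesis genes edgeR called 0 of 8 (0.00623% of tested genes), and 1 of 8 passed an unadjusted p of 0.05 (7.94%). Lss was at 23.7 ± 0.56 CPM, 1.33-fold the Wild type level (log2 fold change 0.41, SE 0.12, edgeR adjusted p = 0.586, DESeq2 adjusted p = 0.231). In 2 genes, Fdps and Lss, every J2 lf/lf library lay above every Wild type library (5.4% of tested genes). Without Wild type replicate 3 the median was 0.22 and 5 of 8 had an unadjusted edgeR p under 0.05, against 4.28% of tested genes, with 0 called (0.00623%). Lss, which that library held lowest, then stood at 0.26 (SE 0.10), and Idi1, which it held high, at 0.22 (SE 0.10) in place of 0.06 (SE 0.12). With the GC curve as an offset and all libraries kept, the median was 0.16 and 5 of 8 had an unadjusted p under 0.05 (6.37% of tested genes), with 0 called (0.0125%).

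In J17a all 8 genes were again positive, from 0.04 to 0.26, with a median of 0.11. None was called by edgeR (0 of 8, and 0% of tested genes), and Lss alone had an unadjusted p under 0.05 (4.39% of tested genes), at a log2 fold change of 0.26 (SE 0.12, edgeR adjusted p = 0.993). Its 3 J17a libraries lay above Wild type, as in 3.47% of tested genes. Without Wild type replicate 3 the value of Lss was 0.11 (SE 0.10) and that of Cyp51 went from 0.17 (SE 0.09) to 0.27 (SE 0.08), with 0 of 8 called and 3 of 8 at an unadjusted p under 0.05 (6.9%). J17a was itself uneven, since replicate 1 was the lowest of the 3 for 5 genes of the 8, Hmgcs1, Idi1, Fdft1, Cyp51 and Insig1. It is also the J17a library of the earlier title numbers.

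In J17b and J27a the medians were below 0. In J17b 5 of 8 genes were negative (median -0.08), and in J27a 6 of 8 (median -0.06). None of the 8 was called by edgeR in either line, where 0.0249% and 0% of tested genes were called. In J17b 1 of 8 had an unadjusted p under 0.05 (5.85% of tested genes), and it was Insig1, at 80.9 ± 5.07 CPM (SD, n = 2) against 70.6 ± 7.09 CPM (SD, n = 3), with a log2 fold change of 0.20 (SE 0.09, edgeR adjusted p = 0.848). Of the 7 enzymes in J17b, Lss was at 0.26 (SE 0.13) and Sqle at 0.02 (SE 0.11), and the other 5 were negative, down to -0.14 (SE 0.13) for Idi1. Without Wild type replicate 3 Insig1 was at 0.27 (SE 0.09, edgeR adjusted p = 0.185), while the J17b median of the 8 genes went to 0.02. In that fit 1 of 8 genes had an unadjusted p under 0.05 (13.3% of tested genes). Without J17b replicate 2 the median was 0.04, so its sign rested on single libraries. In J27a 0 of 8 had an unadjusted p under 0.05 (4.84% of tested genes). All 3 J27a libraries of Cyp51 lay below Wild type, as in 3.85% of tested genes, at a log2 fold change of -0.15 (SE 0.09, edgeR adjusted p = 0.959), or -0.04 (SE 0.08) without Wild type replicate 3 (0 of 8 at an unadjusted p under 0.05, 4.86% of tested genes).

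In J27b 5 of the 8 genes were positive and 3 negative (median 0.07). No gene of the 8 was called by edgeR (0% of tested genes), and 0 of 8 had an unadjusted p under 0.05 (6.94%). Without Wild type replicate 3 all 8 were positive (median 0.12) and 1 of 8, Insig1, had an unadjusted p under 0.05 (7.36%). With all libraries the values ran from -0.07 (SE 0.12) for Idi1 to 0.21 (SE 0.12) for Lss. All 6 of these comparisons share the Wild type libraries, so their values are not independent of each other.

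**Figure D2:**
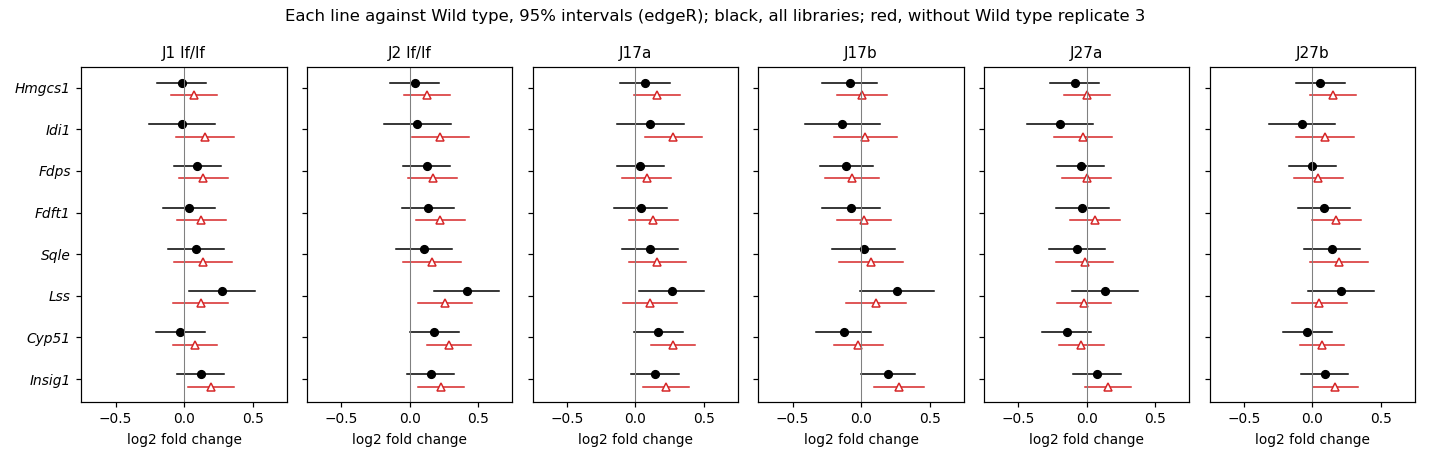
log2 fold change of each gene against Wild type (horizontal axes) with 95% intervals from edgeR, for the 6 lines, with all libraries (black) and without Wild type replicate 3 (red). Leaving that library out lowers Lss in every panel, for example from 0.41 to 0.26 in J2 lf/lf, and raises the other 7 genes.

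The lines were then set against each other. J27a against J2 lf/lf gave the median farthest from 0 of the 12 comparisons. All 8 genes were lower in J27a, with a median log2 fold change of -0.17. Of these edgeR called 0 (0.00623% of tested genes), while 3 of 8 had an unadjusted p under 0.05 (6.36%), namely Cyp51, Lss and Idi1. Fitted on the 6 libraries of these 2 groups alone, 7 of 8 had an unadjusted edgeR p under 0.05 (11.3% of tested genes), and 0 were called (0.172%), with a smallest adjusted p of 0.0608 for Cyp51. Without both GC-shifted libraries, neither of them in these groups, it was 5 of 8 (10.1%), again with 0 called (0.0438%). Cyp51 was at 85.4 ± 6.21 CPM in J2 lf/lf against 68.2 ± 0.14 CPM in J27a (SD, n = 3 each), and the log2 fold change was -0.32 (SE 0.09, 95% interval -0.50 to -0.14, edgeR adjusted p = 0.42, DESeq2 adjusted p = 0.137). Lss was lower by 0.28 (SE 0.12) and Idi1 by 0.25 (SE 0.12) on the log2 scale. For 5 genes, Idi1, Fdps, Sqle, Lss and Cyp51, every J27a library lay below every J2 lf/lf library, where 8.62% of all tested genes did so.

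Cell type markers and title numbers differed along with that gap. The 10 oligodendrocyte markers summed to 5254 to 6454 CPM in J27a and 6786 to 7460 CPM in J2 lf/lf, and 10 of 10 were lower in J27a (median -0.27, 0 called by edgeR and 7 with an unadjusted p under 0.05, against 6.36% of tested genes). The 10 microglia markers summed to 351 to 381 CPM against 391 to 418 CPM, and the 8 choroid plexus markers to 426 to 468 CPM against 601 to 1845 CPM. None of these markers was at 0 in any library. The 10 astrocyte markers summed to 6011 to 6296 CPM in J27a and 5508 to 6007 CPM in J2 lf/lf, with 7 of 10 lower in J27a (median -0.05). In bulk tissue fewer cells of a type and less RNA per cell cannot be told apart, and the part of these markers in the values of the 8 genes was not tested. J27a and J2 lf/lf also lie in different parts of the title numbers, which cannot be told apart from the lines here except through J17a. With a term for the part, which rests on J17a alone, the median of the 8 genes was -0.35 and the value of Cyp51 -0.59 (SE 0.14, edgeR adjusted p = 0.213), with 0 of 8 called (0.00623% of tested genes) and 4 of 8 at an unadjusted p under 0.05 (6.24%). With the GC curve as offset the value of Cyp51 was -0.35 (SE 0.07, edgeR adjusted p = 0.0707), with 0 of 8 called (0.0187%) and 4 of 8 at an unadjusted p under 0.05 (7.33%).

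J27b against J2 lf/lf had 6 of 8 genes lower (median -0.09). Here edgeR called 0 of 8 (0.00623% of tested genes) and 1 of 8 had an unadjusted p under 0.05 (4.75%), again Cyp51, at 73.6 ± 2.6 CPM and a log2 fold change of -0.21 (SE 0.09, edgeR adjusted p = 0.974). Every library was lower for Fdps, Lss and Cyp51, 3 of 8, against 8.02% of tested genes. The oligodendrocyte sums of these lines overlapped, at 6732 to 7116 CPM in J27b, and 5 of the 10 markers were higher and 5 lower. All 10 microglia markers were lower in J27b (median -0.19).

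The lines coded a and b were compared next. Of the 8 genes, 7 were higher in J17a than in J17b (median 0.13). None was called by edgeR (0 of 8, and 0% of tested genes), and 1 of 8 had an unadjusted p under 0.05 (5.9%). It was Cyp51, at 84.7 ± 8.59 CPM (n = 3) against 69.2 ± 1.89 CPM (n = 2, SD), a log2 fold change of 0.29 (SE 0.10, edgeR adjusted p = 0.641). All 3 J17a libraries lay above both J17b libraries, as in 9.85% of tested genes. The median of the 8 genes was 0.02 without J17b replicate 2 and 0.24 without J17b replicate 1. Among libraries of the later title numbers only, that is without J17a replicate 1, Cyp51 stood at 0.37 (SE 0.10, edgeR adjusted p = 0.353) and Idi1 at 0.37 (SE 0.13, adjusted p = 0.517). Between J27a and J27b the sign was the other way, and all 8 genes were lower in J27a (median -0.11). There edgeR called 0 of 8 (0% of tested genes), and Sqle alone had an unadjusted p under 0.05 (5.79%), at -0.21 (SE 0.10, edgeR adjusted p = 0.855). Cyp51 was lower in every J27a library, as in 8.82% of tested genes. The oligodendrocyte markers were lower in J27a too (10 of 10, median -0.26), and their part was not tested.

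The difference between these differences was tested itself, as a contrast added after the values were seen. It was positive for 7 of 8 genes (median 0.26), and edgeR called 0 of 8 (0.00623% of tested genes), with 2 of 8 at an unadjusted p under 0.05 (6.7%). Cyp51 had the largest value, 0.40 (SE 0.13, 95% interval 0.13 to 0.67, edgeR adjusted p = 0.518), and Hmgcs1 had 0.30 (SE 0.13, adjusted p = 0.689). Cyp51 was also the 1 gene of the 8 with every J17a library above J17b and every J27a library below J27b, an arrangement found in 0.766% of tested genes. With the term for the title numbers all 8 were positive (median 0.31) and 5 of 8 had an unadjusted p under 0.05 (8.29% of tested genes), with 0 called by edgeR (0.0685%). The oligodendrocyte markers were positive in 10 of 10 (median 0.34), and their part was not tested.

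Against J1 lf/lf, J17a had 6 of 8 genes positive (median 0.02) and J17b 7 of 8 negative (median -0.08). In each, edgeR called 0 of 8 (0.00623% and 0.0311% of tested genes), with 1 of 8 at an unadjusted p under 0.05 in each (6.54% and 4.22%). These were Cyp51 in J17a, at 0.19 (SE 0.09, edgeR adjusted p = 0.724), and Fdps in J17b, at -0.20 (SE 0.09, adjusted p = 1). The J17b median was 0.03 without J17b replicate 2. Idi1 and Fdps were lower in both J17b libraries than in any J1 lf/lf library, 2 of 8 against 9.19% of tested genes.

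**Figure D3:**
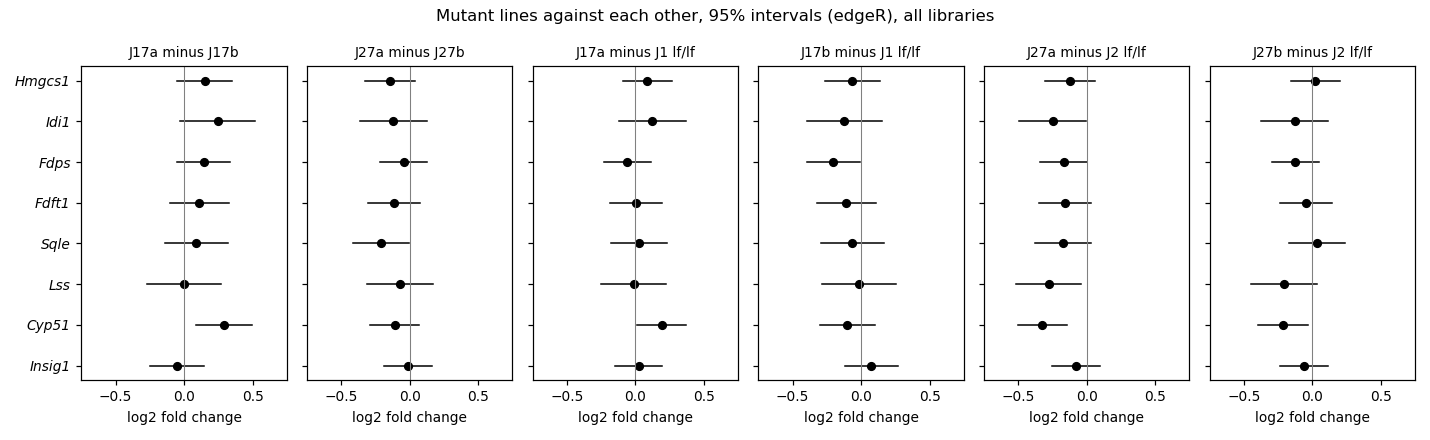
log2 fold change of each gene between mutant lines (horizontal axes) with 95% intervals from edgeR and all libraries. In the panel of J27a minus J2 lf/lf all 8 points lie left of 0, with Cyp51 at -0.32, and in the panel of J17a minus J17b Cyp51 lies at 0.29.

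Over the 12 comparisons between groups, 12 of the 96 values of the 8 genes had an unadjusted edgeR p under 0.05, or 12.5%, against a mean of 5.71% over all tested genes. The 96 values share libraries and the genes move together, so they are not 96 separate observations. Against Wild type the Lss values fell without Wild type replicate 3 and those of the other genes rose, so the tally depends in part on that library. The 8 genes were also chosen with earlier results of these data known. Cyp51 made 4 of the 12 and Lss 4, and Idi1, Fdps, Sqle and Insig1 1 each, while Hmgcs1 and Fdft1 made none. The 95% intervals reached a median of 0.19 log2 units to either side, which corresponds to 1.14-fold. The largest value of the 96 was 1.33-fold (Lss, J2 lf/lf against Wild type). Smaller differences lay within these intervals at this depth and replication. DESeq2 and limma on log2 TPM also called 0 of the 8 genes in each of the 12 comparisons.

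Most of the genes varied together from library to library. Over the 20 libraries the 21 pairs without Lss all correlated positively in log2 CPM, with Pearson r from 0.17 (Fdps and Insig1) to 0.83 (Idi1 and Cyp51) and a median of 0.55. Of the 28 pairs tested, 15 had a Benjamini-Hochberg adjusted permutation p under 0.05 for r and 19 for Spearman's rho. The share of other gene pairs that would pass was not tested, so these counts alone do not set the genes apart. By r with Hmgcs1 among 15376 genes, Idi1 ranked 3 and Sqle 5, but Insig1 651 (r = 0.51, permutation, adjusted p = 0.041). After the GC curve was taken out, Idi1 ranked 21 (r = 0.72), Sqle 1 (r = 0.83) and Insig1 954 (r = 0.44). In the uncorrected values Hmgcs1 and Idi1 gave r = 0.80 and rho = 0.71 (permutation, adjusted p = 0.00035 and 0.00413). Without the 2 libraries farthest from the median of Hmgcs1, r was 0.63. Hmgcs1 and Sqle gave r = 0.80 and rho = 0.80 (permutation, adjusted p = 0.00035 and 0.00084), and r = 0.81 without the 2 farthest libraries. Idi1 and Cyp51 gave r = 0.83 and rho = 0.75 (permutation, adjusted p = 0.00028 and 0.00196), and r = 0.79 without the 2 farthest. Among 15376 other tested genes ranked by r with Idi1, Cyp51 was first and Hmgcs1 ranked 3. Fdft1 ranked 188, Sqle 366, Insig1 572, Fdps 3048 and Lss 8737.

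With group means subtracted, which leaves only differences between libraries of a group, the 21 pairs without Lss stayed positive (0.02 to 0.81, median 0.62). Of the 7 pairs with Lss, 1 was then positive (-0.53 to 0.16, median -0.27). The 21 pairs without Lss were also all positive in the GC-corrected values (0.17 to 0.83), within the 10 libraries of earlier title numbers (0.54 to 0.95, median 0.71) and within the 10 of later ones (0.10 to 0.90, median 0.50). With all libraries, the 4 lowest of the 21 values were pairs with Fdps, at 0.17 with Insig1, 0.31 with Idi1, 0.33 with Sqle and 0.37 with Hmgcs1, while Fdps gave 0.55 with Fdft1 and 0.59 with Cyp51.

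Lss stood outside this pattern in 1 library. Its 7 pairs had r from -0.07 to 0.33, and 0 of 7 passed an adjusted permutation p of 0.05 by r and 2 by rho. Without Wild type replicate 3 the same 7 pairs had r from 0.43 to 0.65. In that library Lss was lowest of 20 while Idi1, Hmgcs1 and Fdft1 each ranked 2. After the GC curve was taken out, r of the Lss pairs was -0.14 to 0.45 with all libraries. Within title numbers up to 10, which hold that library, the 7 pairs had r from -0.39 to 0.19, and within those above 10 from 0.11 to 0.75. The cause of the low Lss value in that library was not tested.

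**Figure D4:**
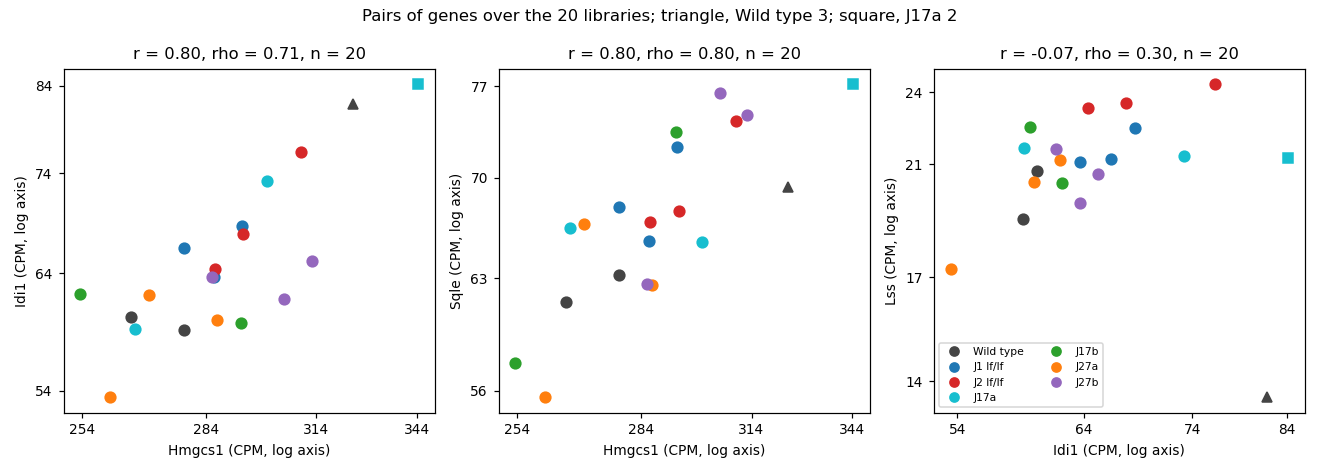
CPM of pairs of genes over the 20 libraries (both axes on a log2 scale), coloured by group. Hmgcs1 rises with Idi1 (r = 0.80) and Sqle (r = 0.80), whereas Idi1 and Lss give r = -0.07, with Wild type replicate 3 (triangle) at the lower right.

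**Figure D5:**
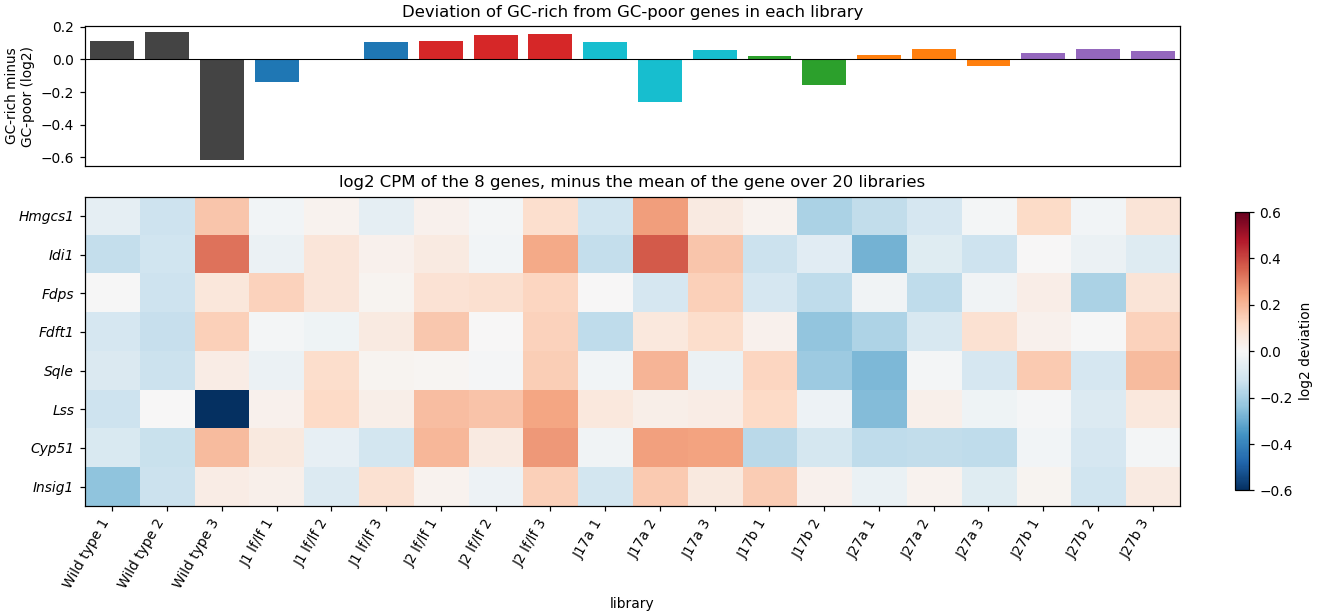
Upper panel, the deviation of GC-rich relative to GC-poor transcripts in each library (log2), and lower panel, log2 CPM of each gene minus its mean over the 20 libraries (colour scale from -0.6 to 0.6). Columns tend to share a colour across genes, and Wild type replicate 3 has both the lowest bar (-0.61) and the darkest cell (Lss).

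The median of the 8 genes, as deviation from their means, was highest in J17a replicate 2 (0.18), J2 lf/lf replicate 3 (0.14) and Wild type replicate 3 (0.11). It was lowest in J27a replicate 1 (-0.17), J17b replicate 2 (-0.13) and Wild type replicate 2 (-0.13). In J2 lf/lf replicates 1 and 3 all 8 genes were above their mean, and in Wild type replicate 1, J27a replicate 1 and J27b replicate 2 none was. The range was alike in the libraries of earlier title numbers (-0.13 to 0.14) and later ones (-0.17 to 0.18). The median oligodendrocyte marker was at 0.19 and 0.09 in the first 2 high libraries and at -0.11 in J27a replicate 1, but at 0.05 in J17b replicate 2 and -0.33 in J27a replicate 3, where the 8 genes stood at -0.05. Its part in the pattern was not tested.

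Of all genes with a mean of at least 3 on the log2 CPM scale (10605 without the 8), Acat2, the cytosolic thiolase that feeds Hmgcs1, had the pattern most like the mean of the 8 genes over the 20 libraries (r = 0.78, first of 10605, and first again after the GC curve at r = 0.77). Msmo1, the sterol C4-methyl oxidase of the later route, ranked 8 (r = 0.70). The other 8 of the top 10 were Cops5, Fa2h, Resp18, Timm17a, Sparcl1, Rassf5, Fam50a and Stk39, with r from 0.68 to 0.76. With group means subtracted the top 10 were other genes, led by Scpep1 (r = 0.90) and Rtn3 (r = 0.86). Acat2 then ranked 80 (r = 0.74) and Msmo1 ranked 198 (r = 0.68). The ranking with group means subtracted used values without the GC correction only, and the part of the GC shift in it was not tested. Genes are not independent of each other, and these r values rank likeness over the 20 libraries and no more.

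The rest of the pathway was read from lists of neighbouring genes. Of 14 other enzymes of cholesterol synthesis, edgeR called 0 in each of the 12 comparisons, with 0 to 3 at an unadjusted p under 0.05. Over all tested genes the shares in these comparisons were 0% to 0.0311% called and 4.22% to 7.94% at an unadjusted p under 0.05. In J2 lf/lf 11 of the 14 were above Wild type (median 0.08), and in J27a 11 of 14 were below J2 lf/lf (median -0.17), with 3 at an unadjusted p under 0.05 (6.36% of tested genes). Mvd and Acat2 were among them. Mvd, mevalonate pyrophosphate decarboxylase, had the largest value of the list in several comparisons, at 19.48, 17.9 and 21.2 CPM in J2 lf/lf and 12.98, 14.8 and 12.2 CPM in J27a. Its log2 fold change between them was -0.55 (SE 0.18, edgeR adjusted p = 0.553). Like Lss, Mvd was lowest of all in Wild type replicate 3, at 8.68 CPM against 16.4 and 16.9 CPM in the other Wild type libraries. In the test for any difference among the 7 groups Mvd had an edgeR adjusted p of 0.63, or 0.0455 without Wild type replicate 3. Msmo1, Nsdhl and Dhcr7 had group means within 77.7 to 90.6, 20.5 to 23.4 and 28.5 to 34.8 CPM, and none was called.

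The sensing machinery was read next. Over its 10 genes edgeR called 0 in each comparison (0% to 0.0311% of tested genes), with 0 to 1 at an unadjusted p under 0.05 (4.22% to 7.94%). The median against Wild type stayed between -0.02 and 0.01. Srebf2, which encodes SREBP2, averaged 238 ± 29.7 CPM in Wild type and 238 to 264 CPM in the lines. Scap was at 101 ± 15.5 CPM in Wild type and Insig2 at 53.6 ± 7.28 CPM (SD, n = 3), and the lines averaged 98.7 to 110 CPM for Scap and 50.04 to 53.9 CPM for Insig2. Over the 20 libraries r with the mean of the 8 genes was 0.06 for Srebf2, -0.15 for Scap and 0.29 for Insig2. After the GC curve these values were 0.40, 0.01 and 0.21, so the value of Srebf2 depended on that correction. Cyp46a1, the neuronal enzyme that turns cholesterol into 24-hydroxycholesterol for export, lay between 146 and 156 CPM in every group mean. Of the 12 genes of removal and transport edgeR called 0 in each comparison (0% to 0.0311% of tested genes), with 0 to 1 at an unadjusted p under 0.05 (4.22% to 7.94%).

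Of the 11 genes of fatty acid synthesis under SREBP1 and the 10 of the isoprenoid side branches, edgeR called 0 in each of the 12 comparisons (0% to 0.0311% of tested genes). At an unadjusted p under 0.05 there were 0 to 3 and 0 to 2 (4.22% to 7.94% of tested genes).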

How the data were processed

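Poly(A)-selected libraries from 20 mouse brain samples were sequenced as read pairs of 150 bases, per the labels' protocols. The authors deposited estimated counts per gene, made with cutadapt and RSEM on mm10 per the submitters' processing notes. They also deposited TPM values from the same libraries. No source used here gives tool versions, annotation or strand setting. RSEM shares out ambiguous reads, and 4.11% of the estimated counts were not whole.

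Estimated counts were rounded and tested in edgeR 4.0.16 (R 4.3.3): TMM factors, filterByExpr, and a robust quasi-likelihood fit of all 20 libraries with a mean per group. P-values were two-sided and adjusted by Benjamini-Hochberg over the 16063 tested genes of a comparison, with a threshold of 0.05. The fit was tested on simulated data. Alternatives were DESeq2 1.42.0 (test and size factors), all genes without a count filter, a fit of the compared groups alone, the replicate number as a block, limma 3.58.1 on log2 TPM with a pseudocount of 1 or 0.1, and leaving out each library. Added after the data were seen were the contrast between differences, a fit without Rn45s, a loess curve (span 0.5) on transcript GC content as offset (95.6% of tested genes had a GC value), a fit without both GC-shifted libraries, and a term for title numbers above 10. Correlations used 100000 permutations over 28 pairs. Positions and GC content are from GENCODE M21. Libraries of a group all differed beyond sampling noise, so none was merged. The 8 genes, the gene lists and the rule for named genes were chosen with earlier results of these data known. That rule took all 8 genes, fixed genes of the pathway, the other enzyme with the largest change, and the 10 genes most like the 8. Values of some of these pathway genes are not reported here.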

Additional observations from a re-analysis of the deposited data

How the results depend on the processing

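None of 1888 values of single genes among the 8, under 32 alternatives, passed an adjusted p of 0.05, and 136 had the opposite sign. In the test for any difference among the 7 groups, edgeR called 1 gene of the 8, Cyp51, with the GC offset and without Wild type replicate 3. Its adjusted p of 0.429 ranged from 0.0367 to 0.721 when each library was left out (0 to 1 gene called), and was 0.0539 without both GC-shifted libraries (0.994% of tested genes called). Leaving out each library moved the median log2 fold change of the 8 genes over 0.079 to 0.22 (J2 lf/lf against Wild type), -0.13 to 0.036 (J17b against Wild type), 0.020 to 0.24 (J17a against J17b) and -0.14 to 0.029 (J17b against J1 lf/lf). Without both GC-shifted libraries the medians against Wild type were 0.22 in J2 lf/lf and 0.033 in J17b. With the title number term, which rests on J17a alone, the medians against Wild type were -0.0094 (J17a), -0.22 (J17b), -0.22 (J27a) and -0.14 (J27b). Under the same term the medians against the lf/lf lines were -0.089 (J17a), -0.28 (J17b), -0.35 (J27a) and -0.27 (J27b). Cyp51 in J1 lf/lf against Wild type turned to 0.0041 with the GC offset and 0.081 without both libraries, and lay between -0.087 and 0.081 with each left out. Cyp51 in J27b against Wild type turned to 0.012 and 0.071, and lay between -0.10 and 0.071. Lss in J27a against Wild type lay between -0.021 and 0.27, and at -0.021 without both. With the title number term Cyp51 in J17a and Insig1 in J17b against Wild type turned to -0.014 and -0.023. The cause of these shifts was not tested. With the replicate number as a block, 0 of 8 genes were called in every comparison and the median for J27a against J2 lf/lf was -0.17. No pairing by number was visible. Deviations of same-numbered libraries correlated at -0.34 to 0.31, and 6 of 57 pairs exceeded 0.1. Those of different-numbered libraries correlated at -0.38 to 0.42, and 19 of 114 exceeded 0.1. With spreads this wide a weak pairing could go unseen. The count of all genes called for any difference, 14, ranged from 2 to 114 with each library left out, and was 231 in DESeq2. Fitting only the libraries of the groups compared changed no median of the 8 genes by more than 0.01 and called 0 of 8, while the count with an unadjusted edgeR p under 0.05 went from 3 to 7 for J27a against J2 lf/lf, from 1 to 2 for J27a against J27b (12.2% of tested genes) and from 1 to 2 for J27b against J2 lf/lf (11.1%), from 2 to 3 for the difference between differences, and from 1 to 0 for J1 lf/lf, J17a and J17b against Wild type. All genes called in the first 3 of these then numbered 26, 125 and 81, against 1, 0 and 1 with all groups fitted.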
